A study of Mus musculus with 8 samples.

Results

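The genes described here are 10 protein-coding genes that lie beside Mif, the gene of macrophage migration inhibitory factor, on mouse chromosome 10. They are Gstt1, Gstt2, Gstt3, Gstt4, Cabin1, Smarcb1, Derl3, Chchd10, Susd2 and Ggt5. They were chosen by position, from a list of named neighbours. They make up 10 of the 29 protein-coding genes within 500 kb of Mif and of the 35498 genes that the expression tables cover. The count of 29 includes Mif itself. Their reads and TPM values (transcripts-per-million units, which correct for length) were summed over the transcripts of each gene.

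The libraries were bulk RNA sequencing of sorted C57BL/6 sarcoma cells that lack p53 and overexpress Ccne1, the gene of cyclin E1. In the CRISPR pair of groups the cells carried Cas9 and either a control guide RNA (sgSCR, labelled Mif wild type) or a guide against Mif (sgMif, labelled Mif knockout). In the other pair they carried a control short hairpin RNA (shSCR, labelled Mif wild type) or a hairpin against Mif (shMif, labelled Mif knockdown). The design text gives Cas9 to the hairpin cells as well, while the growth protocol names it for the guide cells. All 4 groups came from mesenchymal stem cells that had been transformed and had already formed tumours in a first set of mice. The engineered cells grew beneath the skin of further mice on polyurethane scaffolds, and the tumour cells were sorted by fluorescence. The sources used here do not give the age or sex of the mice, the number of clones or the sequence of the guide. Each group held 2 libraries. The labels do not say whether a pair came from different mice, and the p-values therefore reflect the spread between libraries alone, which may be technical.

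As background, the theta class of glutathione transferases, encoded by Gstt1 to Gstt4, joins the tripeptide glutathione to reactive compounds. Ggt5 encodes a gamma-glutamyl transferase of the cell surface that cleaves glutathione conjugates such as leukotriene C4. Cabin1 binds and inhibits the phosphatase calcineurin and takes part in the HIRA histone chaperone complex. Smarcb1 is a core subunit of the BAF and PBAF chromatin remodelling complexes and a tumour suppressor. Derl3 belongs to the derlins, which act in the removal of misfolded proteins from the endoplasmic reticulum and are abundant in secretory cells. Chchd10 is a small twin CX9C protein of the space between the mitochondrial membranes, and Susd2 is a membrane protein with a sushi domain that is used as a marker of mesenchymal stromal cells.

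Of the 9 of these genes that passed a filter on low counts, Gstt4 had the widest relative gap between the sgMif and sgSCR libraries. Its log2 fold change was -3.21, beside 0.22 for its paralogue Gstt3 on the same strand. The 250 bases upstream of the start of both are shown, to set side by side the start regions of these paralogues. They come from RefSeq (GRCm38.p6, the mm10 build), where 7 of the 10 genes had an entry, read 5′ to 3′ on the minus strand, with matches to CCAAT (either strand) in capitals.
Gstt4, chr10:75822544-75822793: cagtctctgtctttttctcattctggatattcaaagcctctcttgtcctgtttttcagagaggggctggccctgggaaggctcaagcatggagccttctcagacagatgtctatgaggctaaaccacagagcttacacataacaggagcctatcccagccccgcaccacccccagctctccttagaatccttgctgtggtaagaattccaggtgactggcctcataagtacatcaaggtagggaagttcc
Gstt3, chr10:75781423-75781672: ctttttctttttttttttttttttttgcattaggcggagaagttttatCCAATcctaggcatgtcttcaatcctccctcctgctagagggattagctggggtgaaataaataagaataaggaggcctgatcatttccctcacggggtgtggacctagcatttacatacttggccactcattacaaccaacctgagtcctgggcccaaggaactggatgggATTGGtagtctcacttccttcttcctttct
Both strands were searched for the TATA box letters TATAAA, the GC box letters GGGCGG, the CCAAT box, the E-box letters CACGTG and the core of the antioxidant response element, TGACNNNGC. None of them was in the Gstt4 window, and the Gstt3 window held CCAAT in 2 places and none of the others. Over 27025 RefSeq promoter windows of 250 bases, 34.5% held CCAAT, 32.9% GGGCGG, 13.0% TATAAA, 10.2% TGACNNNGC and 6.05% CACGTG. The Gstt4 window had 1 CpG and the Gstt3 window 2, against a median of 6 over all windows, with a lower quartile of 2 and an upper quartile of 16.

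In mm10, Mif lies on the minus strand at chr10:75859353-75860240. On its side of lower coordinates, all on the minus strand, are Gstt2 (chr10:75831114-75837424, 21.9 kb away), Gstt4 (chr10:75814943-75822543, 36.8 kb), Gstt1 (chr10:75783813-75798584, 60.8 kb), Gstt3 (chr10:75774115-75781414, 77.9 kb) and Cabin1 (chr10:75646112-75764341, 95.01 kb). Farther out on that side are Susd2 on the minus strand (chr10:75636706-75644008, 215.3 kb) and Ggt5 on the plus strand (chr10:75589340-75617200, 242.2 kb). On the side of higher coordinates are Derl3 on the plus strand (chr10:75893413-75895941, 33.2 kb), Smarcb1 on the minus strand (chr10:75896769-75921617, 36.5 kb) and Chchd10 on the plus strand (chr10:75933130-75937747, 72.9 kb).

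Read totals ran from 19042235 to 51819308 per library, and 16309 genes were tested after a filter on low counts. Mif stood at 377 and 455 CPM (counts-per-million units, scaled between libraries) in sgSCR and at 221 and 222 CPM in sgMif, a log2 fold change of -0.91 ± 0.32 (SE) with an adjusted p of 0.215. In the hairpin pair it stood at 170 and 375 CPM in shSCR and 277 and 222 CPM in shMif, a log2 fold change of -0.13 with an adjusted p of 0.925, so these are called the libraries labelled shMif. Mif shares 56.4% of the 31-base words of its main transcript with other genes, so its reads are uncertain. Reads on 1135 olfactory receptor genes divided the libraries in a way that the groups do not: they made up 370 to 540 CPM in sgMif 2, shSCR 2 and shMif 2 and 1307 to 2506 CPM in the other 5. Summed over 6 mesenchymal markers the libraries held 12987 to 25304 CPM, over 14 macrophage markers 120 to 478 CPM, and over 6 markers of host skin fibroblasts 252 to 1451 CPM. In bulk samples fewer cells of a type and less RNA per cell cannot be told apart.

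By length-corrected level, the 10 genes covered several orders of size. Gstt1 had the highest mean, 57.7 TPM ± 13.2 (SD, n = 8 libraries), followed by Smarcb1 at 43.9 ± 2.48 TPM, Cabin1 at 20.1 ± 2.44 TPM and Gstt3 at 15.6 ± 3.30 TPM. Gstt4 averaged 6.29 TPM with a range of 1.01 to 11.02, and Chchd10 averaged 2.98 TPM with a range of 0.242 to 9.46. Gstt2 (0.844 TPM), Ggt5 (0.458 TPM), Derl3 (0.363 TPM) and Susd2 (0.142 TPM) averaged under 1 TPM. Smarcb1 lay above Cabin1 in 8 of 8 libraries without overlap of their ranges, as did Gstt3 above Gstt4. Every other pair of neighbours in this order overlapped: Gstt1 lay above Smarcb1 in 7 libraries and Gstt4 above Chchd10 in 6, and Derl3 lay above Susd2 in only 2.

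**Figure D1:**
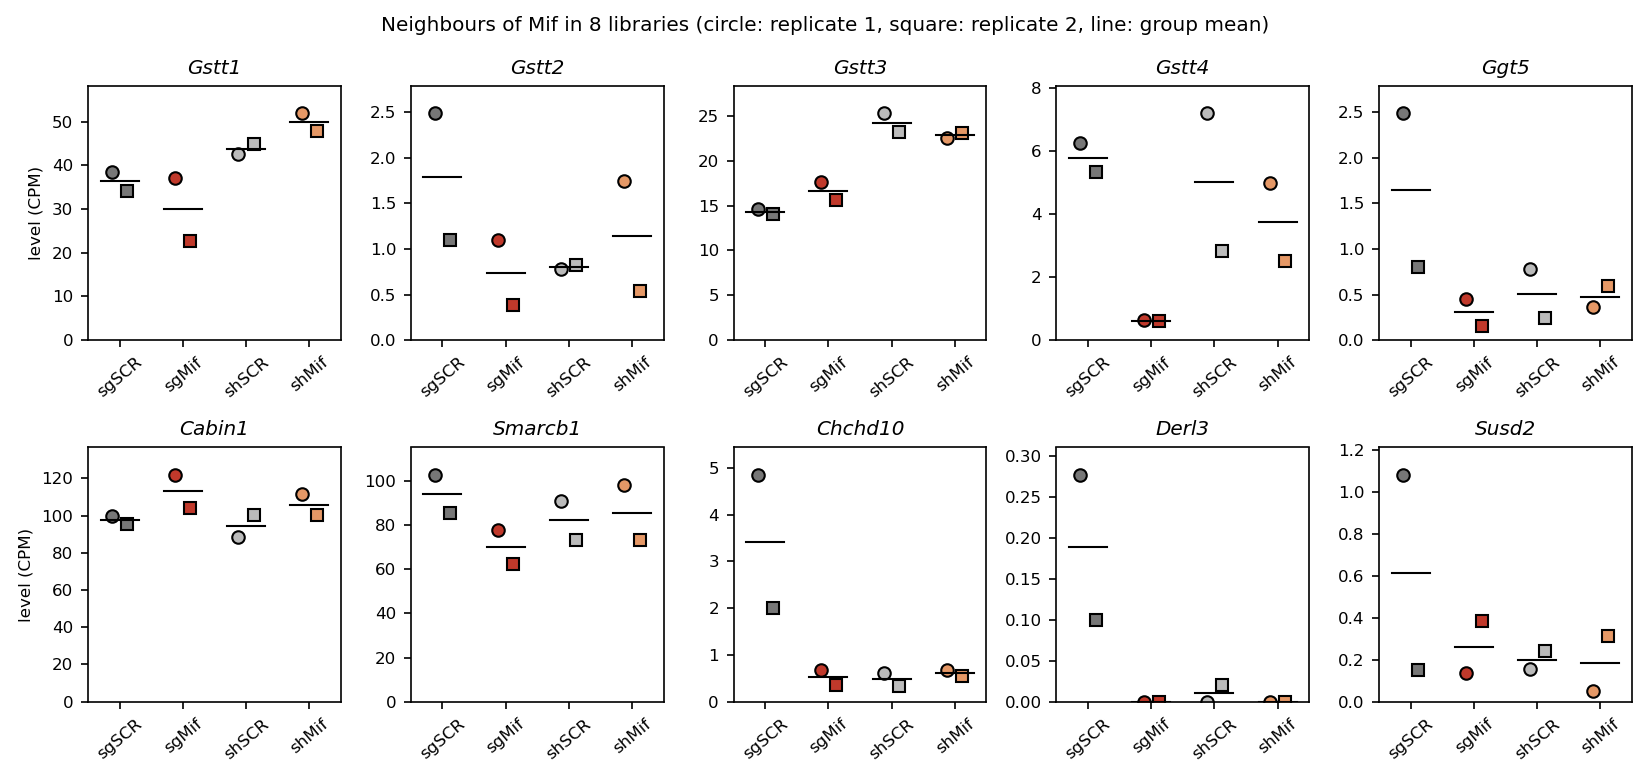
Level of each of the 10 genes (y axis, CPM from 0, one scale per panel) in the 4 groups (x axis), with a circle for replicate 1, a square for replicate 2 and a line for the group mean. The sgMif points of Gstt4 sit at 0.639 and 0.609 CPM, below all 6 other libraries, and the sgSCR points of Chchd10 sit at 4.85 and 1.99 CPM, above all 6 others.

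The guide against Mif was compared with the control guide to ask whether genes beside the target moved with it. Of the 9 neighbours tested (Derl3 failed the filter on low counts), 0 passed edgeR's quasi-likelihood test at an adjusted p of 0.05, where 0.987% of all genes passed. At an unadjusted p of 0.05, 3 of the 9 were past the threshold, against 16.6% of all genes. DESeq2 called 2 of the 9, against 6.58% of the genes to which it gave an adjusted p. The CPM values of sgMif and sgSCR did not overlap for 7 of the 9, against 51.3% of all genes, and 5 of those were lower in sgMif, against 24.2% of all genes. Gstt2 is in both counts by a near tie, 1.0968 CPM in sgSCR 2 beside 1.0954 CPM in sgMif 1. The median log2 fold change of the 9 was -1.22, beside -0.01 over all genes tested, and 4 of the 9 averaged under 4 CPM in both groups. That median is the value of Susd2 (-1.22 ± 1.24, SE, from 3 and 17 reads in sgMif). The best expressed members, Cabin1, Smarcb1, Gstt1 and Gstt3, had 0.21, -0.43, -0.28 and 0.22.

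Gstt4 stood at 6.26 and 5.33 CPM in sgSCR (249 and 107 reads) and at 0.639 and 0.609 CPM in sgMif (14 and 27 reads). Both sgMif libraries were far below both sgSCR libraries and also below every hairpin library, where Gstt4 stood at 7.21 and 2.85 CPM in shSCR and 4.99 and 2.53 CPM in shMif. The fitted level was 9.27-fold lower in sgMif, a log2 fold change of -3.21 ± 0.58 (SE) with a 95% interval of -4.54 to -1.89. Its adjusted p was 0.0502 and its unadjusted p 0.000504, which ranked 163 of 16309 genes, so it missed the threshold by the main test. Over 17 other settings the log2 fold change ran from -3.30 to -2.72 and the adjusted p from 1.39e-06 to 0.264, with 7 settings past the threshold. Without shSCR 1 the adjusted p was 0.0245 and without shSCR 2 it was 0.0244, whereas without any one of the sgSCR or sgMif libraries it was between 0.175 and 0.264. Without shMif 1 or shMif 2, Gstt4 stayed short of the threshold too, at log2 fold changes of -3.21 and -3.20. With a term for the library class by olfactory receptor reads, over all 8 libraries, the log2 fold change was -2.72 and the adjusted p 0.0596. Within the 5 libraries with many such reads it was -3.18 with an adjusted p of 0.00998, but there only the sgSCR pair gives a spread, and the lone libraries of sgMif, shSCR and shMif are assumed to vary like it. No 31-base word of the main Gstt4 transcript occurred in another gene.

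**Figure D2:**
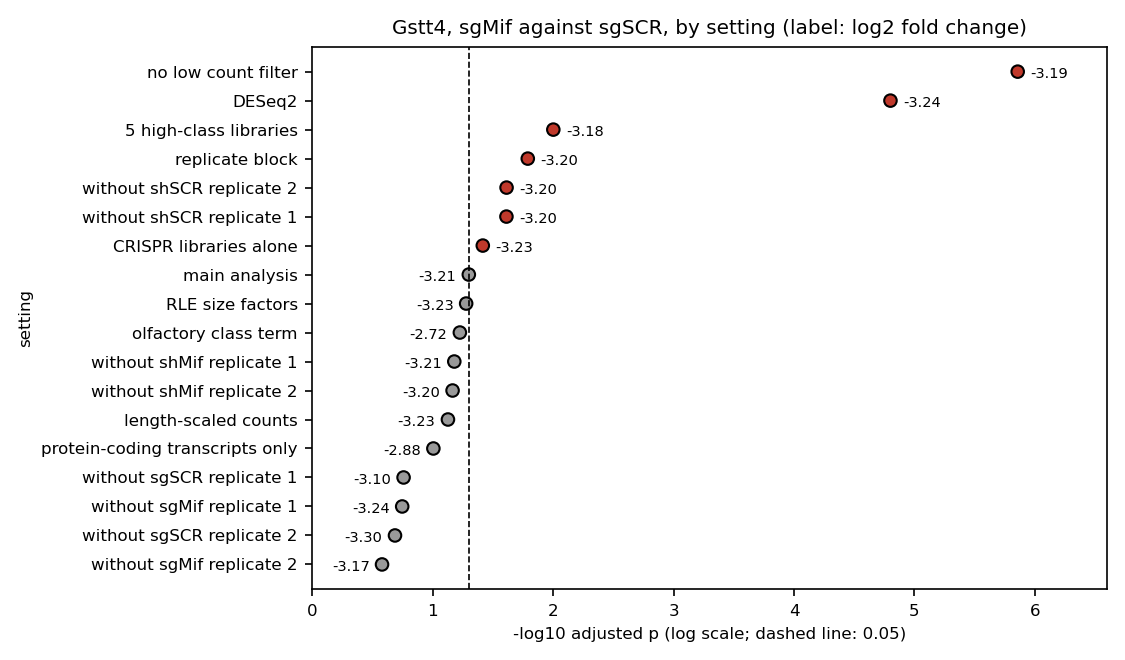
Gstt4 in sgMif against sgSCR under each setting (y axis), with -log10 of the adjusted p (x axis) and the log2 fold change beside each point. Red points lie past 0.05, the dashed line, and the main analysis lies just short of it at 0.0502 while the fold change stays between -3.30 and -2.72.

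The other theta-class genes had log2 fold changes nearer to 0 in sgMif than Gstt4, and the difference between genes was not tested. Gstt1 stood at 38.6 and 34.1 CPM in sgSCR and 37.2 and 22.7 CPM in sgMif, where the groups overlapped (log2 fold change -0.28 ± 0.22, adjusted p 0.558), and without sgMif 2 the log2 fold change was 0.04. Gstt3 stood at 14.6 and 14.0 CPM in sgSCR and at 17.7 and 15.6 CPM in sgMif, higher without overlap but short of the test (0.22 ± 0.16, adjusted p 0.543, and -0.10 with length-scaled counts). Gstt2, the nearest to Mif, stood at 2.49 and 1.10 CPM in sgSCR and 1.10 and 0.383 CPM in sgMif, from 17 to 99 reads per library (log2 fold change -1.31 ± 0.82, 95% interval -3.21 to 0.58, adjusted p 0.462). The main transcript of Gstt3 shares 27.0% of its 31-base words with other genes, nearly all with the read-through gene Gm20441 on the same strand, and that of Gstt1 shares 0.695%. None of these 3 genes passed.

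Ggt5, the gamma-glutamyl transferase, stood at 2.49 and 0.798 CPM in sgSCR and 0.456 and 0.158 CPM in sgMif (log2 fold change -2.47 ± 0.98, adjusted p 0.267). The first sgSCR library alone held 99 of its 202 reads over all 8 libraries. Cabin1, the calcineurin inhibitor, stood at 99.7 and 95.5 CPM in sgSCR and 122 and 104 CPM in sgMif, a small gap without overlap (0.21 ± 0.14, adjusted p 0.494). Susd2, the sushi-domain protein, stood at 1.08 and 0.150 CPM in sgSCR and 0.137 and 0.383 CPM in sgMif (-1.22 ± 1.24, adjusted p 0.655), and without sgSCR 1 its log2 fold change was 0.81. The groups overlapped for Susd2 only among these 3 genes.

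Derl3, the derlin of secretory cells, was close to absent. It had 11 and 2 reads in sgSCR, 1 read in shSCR 2 and 0 reads in the other 5 libraries, where a count of 0 allows up to 0.0676 to 0.154 CPM (3 counts, counting error only). None of its reads was assigned to a protein-coding transcript, and the 11 reads of sgSCR 1 all lay on a transcript annotated as a retained intron. Plasma cells are a known source of Derl3, and the 10 B and plasma cell markers summed to 33.0 and 97.9 CPM in sgSCR, 14.0 and 3.81 CPM in sgMif, 14.9 and 10.7 CPM in shSCR and 62.2 and 8.93 CPM in shMif. The sum was lower in sgSCR 1, with 11 Derl3 reads, than in sgSCR 2, with 2 reads, or shMif 1, with 0. In sgSCR 1 the largest of these markers was Ms4a1 at 11.8 CPM, while Jchain stood at 0.981 CPM and Mzb1 and Tnfrsf17 at 0. The part of B and plasma cells in the Derl3 reads was not tested.

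Chchd10, the mitochondrial twin CX9C protein, was highest in the control-guide libraries. It stood at 4.85 and 1.99 CPM in sgSCR, 0.685 and 0.361 CPM in sgMif, 0.622 and 0.343 CPM in shSCR and 0.669 and 0.540 CPM in shMif. The log2 fold change of sgMif against sgSCR was -2.73 ± 0.71 (adjusted p 0.111), and that of shSCR against sgSCR was -2.83 ± 0.70 (adjusted p 0.0665). DESeq2 gave adjusted p-values of 0.0171 and 0.00665 for these. With length-scaled counts they were -1.78 (adjusted p 0.492) and -2.19 (adjusted p 0.307), and without sgSCR 1 they were -1.95 (adjusted p 0.429) and -2.03 (adjusted p 0.286). Both comparisons rest on the same sgSCR libraries, so they are not independent of each other. The first sgSCR library alone held 193 of the 337 reads of Chchd10. Its values also differed by library class without overlap. They were 0.622 to 4.85 CPM in the 5 libraries with many olfactory receptor reads and 0.343 to 0.540 CPM in the other 3. Only sgSCR had both of its libraries in the high class. With a class term the log2 fold change of sgMif against sgSCR was -2.43 (edgeR, adjusted p 0.185).

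Chchd10 shares 155 exon bases (chr10:75936291-75936445) with Mmp11, a matrix metalloproteinase gene on the opposite strand, and 8.78% of the 31-base words of its main transcript occur in other genes, nearly all in Mmp11. Whether the libraries keep strand is not given, so reads in the shared stretch cannot be told apart. Of the 31-base words of the longest Mmp11 transcript, 0 occur in other genes, so the shared stretch lies outside that transcript. Mmp11 itself stood at 120 and 140 CPM in sgSCR, 49.5 and 78.9 CPM in sgMif, 64.2 and 68.7 CPM in shSCR and 60.0 and 65.8 CPM in shMif. It fell by 0.97 ± 0.22 on the log2 scale in shSCR against sgSCR (adjusted p 0.0499) and had a log2 fold change of -1.02 ± 0.22 in sgMif against sgSCR (adjusted p 0.0728). The first of these was past the threshold in 8 of 16 other settings, and in 2 of the 8 that leave out a library, with adjusted p-values up to 0.242. Like Chchd10, it was highest in both sgSCR libraries. Whether Mmp11 reads enter the Chchd10 values was not tested.

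Some markers of other cells also differed between sgSCR and sgMif. The 14 macrophage markers summed to 478 and 227 CPM in sgSCR, 151 and 120 CPM in sgMif, 268 and 301 CPM in shSCR and 468 and 241 CPM in shMif. The sum of sgSCR 2 thus lay below those of all 4 hairpin libraries. Of the 14, 11 were lower in sgMif than in sgSCR without overlap, beside the 24.2% of all genes, and Csf1r, Lyz2 and Ptprc overlapped. Lyz2, the lysozyme gene of myeloid cells, stood at 38.2 and 30.3 CPM in sgSCR and 64.5 and 30.6 CPM in sgMif. Cd163, a scavenger receptor gene, stood at 103 and 24.9 CPM in sgSCR, was 0 in both sgMif libraries and stood at 0.0202 to 0.596 CPM in the 4 hairpin libraries. The 6 fibroblast markers summed to 1451 and 1168 CPM in sgSCR, 393 and 252 CPM in sgMif, and 560 to 679 CPM in the hairpin libraries. Dcn made up most of this, at 1238 and 1028 CPM in sgSCR. Of the 6, 5 were lower in sgMif than in sgSCR without overlap, again beside 24.2% of all genes, and Dpt overlapped. Pi16 and Ly6c1 were higher in both shMif libraries than in both sgSCR libraries. The 6 pericyte markers summed to 442 and 474 CPM in sgSCR, 782 and 630 CPM in sgMif, and 562 to 648 CPM in the hairpin libraries. Cspg4 and Pdgfrb made up most of each sum and were higher in sgMif than in sgSCR without overlap, beside 27.1% of all genes. Of the 6, 2 were lower without overlap, beside 24.2% of all genes: Abcc9 (6.56 and 4.49 against 3.42 and 0.857 CPM) and Kcnj8. Rgs5 and Notch3 overlapped. Of the 10 neighbours, 6 had their highest level in sgSCR 1 (Gstt2, Smarcb1, Derl3, Chchd10, Susd2 and Ggt5), where 14.4% of all genes tested and 26.8% of those with a mean log2 CPM under 1 had theirs. The part of these other cells in the low-level neighbours was not tested.

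Smarcb1, the chromatin remodelling subunit, stood at 103 and 85.5 CPM in sgSCR and 77.6 and 62.4 CPM in sgMif, lower without overlap (log2 fold change -0.43 ± 0.20, adjusted p 0.343). In shSCR it stood at 91.0 and 73.3 CPM and in shMif at 98.4 and 73.1 CPM. Its reads were divided between 2 protein-coding transcripts and Smarcb1-205, annotated as a retained intron. The retained-intron transcript held 56.3% and 44.4% of Smarcb1 reads in sgSCR, 41.2% and 13.5% in sgMif, 54.6% and 22.8% in shSCR and 53.9% and 19% in shMif. The share was 41.2 to 56.3% in the 5 libraries with many olfactory receptor reads and 13.5 to 22.8% in the other 3, so it followed the library class and crossed the groups.

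The protein-coding transcripts of Smarcb1 summed to 44.9 and 47.5 CPM in sgSCR and 45.7 and 53.9 CPM in sgMif. In the hairpin libraries they summed to 41.3 and 56.6 CPM in shSCR and 45.4 and 59.0 CPM in shMif. The groups overlapped on this measure, and the log2 fold change of sgMif against sgSCR was 0.07 (adjusted p 0.887) in place of -0.43. Over all genes, retained-intron transcripts took 3.90 to 5.41% of reads. The cause of the library class was not tested.

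**Figure D3:**
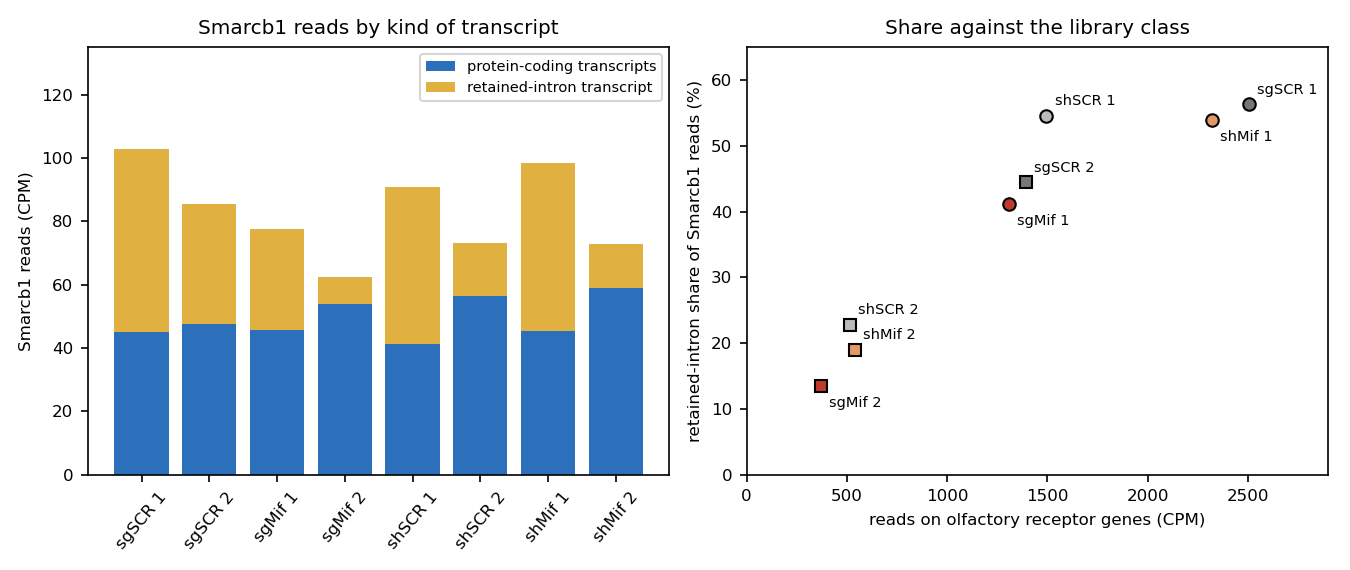
Left, Smarcb1 reads (y axis, CPM from 0) in each library, divided into protein-coding transcripts and the retained-intron transcript. Right, the retained-intron share of Smarcb1 reads (y axis, %) against reads on olfactory receptor genes (x axis, CPM), where sgMif 2, shSCR 2 and shMif 2 sit at 13.5 to 22.8% and the other 5 libraries at 41.2 to 56.3%.

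The same genes were compared between the libraries labelled shMif and shSCR. Here 0 of the 9 neighbours passed edgeR's test, where 0.0184% of all genes did, 0 were past an unadjusted p of 0.05 (9.26% of all genes) and DESeq2 called 0 of the 8 to which it gave an adjusted p (1.24% of all such genes). The groups did not overlap for 2 of the 9, against 41.7% of all genes. These were Gstt1, at 42.5 and 45.0 CPM in shSCR and 51.9 and 47.9 CPM in shMif (log2 fold change 0.19 ± 0.22, adjusted p 0.820), and Gstt3, at 25.3 and 23.2 CPM and at 22.5 and 23.1 CPM (-0.09 ± 0.16, adjusted p 0.895). Gstt4 had a log2 fold change of -0.42 with a 95% interval of -1.61 to 0.77. Cabin1 stood at 88.6 and 100.5 CPM in shSCR and 111 and 100.2 CPM in shMif (0.16 ± 0.14, adjusted p 0.739).

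The low-level genes had wide intervals in the hairpin pair. Gstt2 stood at 0.778 and 0.827 CPM in shSCR and 1.75 and 0.540 CPM in shMif, and its log2 fold change of 0.49 had a 95% interval of -1.38 to 2.36. Ggt5 stood at 0.778 and 0.242 CPM in shSCR and 0.360 and 0.597 CPM in shMif, with an interval of -2.23 to 2.10. Susd2 stood at 0.156 and 0.242 CPM in shSCR and 0.0515 and 0.313 CPM in shMif, with an interval of -3.03 to 2.92. The interval of Chchd10 was -1.26 to 1.91. Smarcb1, which is not a low-level gene, had a narrower interval of -0.41 to 0.53. For these 5 genes the shSCR and shMif values overlapped.

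The gap between both Mif effects was tested directly. Of the 9 neighbours 0 passed, where 0.092% of all genes did, 2 were past an unadjusted p of 0.05 (15.8% of all genes), and DESeq2 called 1 of 8 with an adjusted p, Gstt4 (4.54% of all such genes). For Gstt4 the log2 fold change in the CRISPR pair minus that in the hairpin pair was -2.79 ± 0.76 (adjusted p 0.179), and for Chchd10 it was -3.06 ± 0.98 (adjusted p 0.215). In a joint fit over both systems 0 of the 9 passed, where 0% of all genes did, 1 was past an unadjusted p of 0.05 (8.01% of all genes) and DESeq2 called 0 of 7 with an adjusted p (2.18% of all such genes). The gene past the unadjusted p was Gstt4, at a log2 fold change of -1.76 ± 0.64 (adjusted p 0.519).

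The control groups, both labelled Mif wild type, were compared to see how far groups differ without a Mif label. They also differ in system, hairpin or guide, so an effect of the system and the spread between groups cannot be told apart. Of the 9 neighbours 1 passed, where 4.02% of all genes did, and 5 did not overlap, against 54.6% of all genes. DESeq2 called 2 of 8 with an adjusted p, Gstt3 and Chchd10, against 13.3% of all such genes. The gene that passed edgeR's test was Gstt3, which rose from 14.6 and 14.0 CPM in sgSCR to 25.3 and 23.2 CPM in shSCR, by 0.76 ± 0.16 on the log2 scale (1.69-fold, adjusted p 0.0460). All 4 hairpin libraries lay above all 4 CRISPR libraries for this gene, but the share of all genes that separate in this way is not given. The call did not hold in 10 of 16 other settings, where the adjusted p reached 0.219, and over all 16 the log2 fold change was 0.56 to 0.83. Leaving out sgSCR 1, sgSCR 2, sgMif 1, sgMif 2, shSCR 1, shMif 1 or shMif 2 gave adjusted p-values of 0.180, 0.216, 0.0616, 0.0641, 0.162, 0.0849 and 0.0888 in that order.

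The other members showed a gap between the control groups that did not pass. Gstt1 was higher in shSCR (log2 fold change 0.27 ± 0.22, adjusted p 0.508). All 4 of its hairpin values lay above all 4 of its CRISPR values, again without a share over all genes beside it. Gstt4 overlapped, with a log2 fold change of -0.21 ± 0.51 (adjusted p 0.831). Those of Gstt2, Ggt5 and Susd2 were -1.17, -1.70 and -1.64, with adjusted p-values of 0.428, 0.319 and 0.466. Cabin1 (-0.05, adjusted p 0.869) and Smarcb1 (-0.20, adjusted p 0.600) lay closest to 0 with Gstt4.

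**Figure D4:**
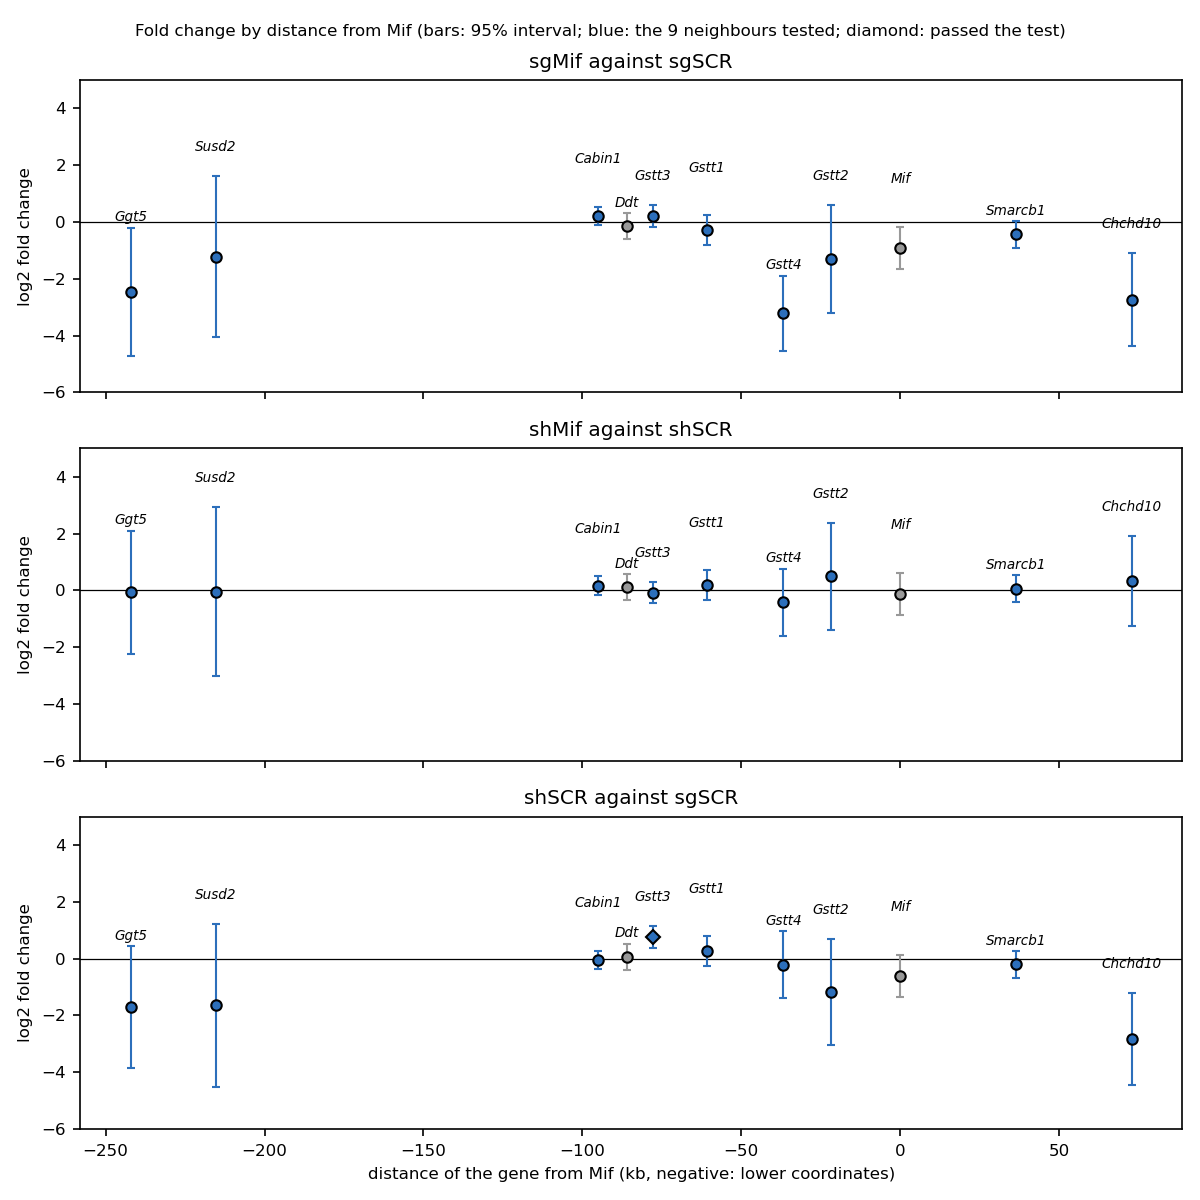
Log2 fold change with its 95% interval (y axis) of the 9 neighbours tested (blue), Mif and Ddt (grey) against distance from Mif in kb (x axis), in 3 comparisons. Gstt4, 36.8 kb from Mif, lies at -3.21 in sgMif against sgSCR between Gstt2 at -1.31 and Gstt1 at -0.28, and the only diamond, a gene that passed, is Gstt3 in shSCR against sgSCR.

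Fold changes were also read by distance from Mif. In sgMif against sgSCR, 0 of the 21 protein-coding genes tested within 500 kb of Mif passed, with a median log2 fold change of -0.28. Within 5 Mb the median was 0.00 over 138 genes, of which 1 rose and 0 fell. Over all of chromosome 10 the median was 0.03 for 287 genes at lower coordinates than Mif and -0.02 for 444 genes at higher coordinates. Other chromosomes had a median of 0.00. For the better expressed genes, whose mean log2 CPM was 1 or more, the median within 500 kb was -0.07 over 14 genes. Besides the 10 genes described, the smallest p-values in the window belonged to Mmp11, to Pcnt, which encodes the centrosome protein pericentrin (0.65 ± 0.17, adjusted p 0.118), and to Prmt2, an arginine methyltransferase gene (-0.64 ± 0.18, adjusted p 0.132). Ddt, the Mif homologue between Cabin1 and Gstt3, had a log2 fold change of -0.15 ± 0.20 (adjusted p 0.740).

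Other genes of the pathways that the neighbours belong to were counted from fixed lists. Over all genes tested, 0.987% passed in sgMif against sgSCR and 4.02% in shSCR against sgSCR. The median log2 fold changes over all genes were -0.01 and -0.04 in that order. Of 17 tested glutathione transferase genes outside the Mif region, 0 passed in sgMif against sgSCR and the median log2 fold change was -0.13. Gstm1, a mu-class transferase, had 0.78 ± 0.21 (adjusted p 0.125), Gsto2, of the omega class, -2.06 ± 0.50 (adjusted p 0.0992) and Gstm4 -5.22 ± 1.38 (adjusted p 0.115). Of 15 genes of glutathione synthesis and the gamma-glutamyl cycle 0 passed in sgMif against sgSCR. In shSCR against sgSCR 1 of these rose and 2 fell: Lap3, a leucine aminopeptidase, rose by 0.63 (adjusted p 0.0404), Ggt7, a relative of Ggt5, fell by 1.88 (adjusted p 0.0334) and Anpep, aminopeptidase N, fell by 1.08 (adjusted p 0.0379). Against sgSCR, Anpep had a log2 fold change of -1.17 in sgMif (adjusted p 0.0544).

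Of 25 tested BAF and PBAF subunit genes other than Smarcb1, 0 passed in any comparison, and the median in sgMif against sgSCR was 0.15. For these lists too, the shares of all genes that passed were 0.987% in sgMif against sgSCR and 4.02% in shSCR against sgSCR. The nearest to the threshold was the core subunit Smarcc2 in sgMif against sgSCR (0.59 ± 0.12, adjusted p 0.0636). Of 21 genes of endoplasmic reticulum associated degradation, 0 passed in sgMif against sgSCR (median 0.23), and in shSCR against sgSCR 2 rose, Vcp, the ATPase that extracts proteins, by 0.63 (adjusted p 0.0480) and Ube2g2, a ubiquitin-conjugating enzyme, by 0.60 (adjusted p 0.0496). Its relatives Derl1 and Derl2 on that list passed the filter on low counts, unlike Derl3. Of 15 MICOS and twin CX9C genes, 0 passed in sgMif against sgSCR (median 0.16), and Dnajc11 rose by 0.88 in shSCR against sgSCR (adjusted p 0.0409). Of 20 genes of calcineurin, its MEF2 and NFAT targets and the HIRA complex, 0 passed in sgMif against sgSCR (median 0.21), and Nfatc1 fell by 0.99 in shSCR against sgSCR (adjusted p 0.0368). The calcineurin regulator Rcan2 had 1.22 ± 0.33 in sgMif against sgSCR (adjusted p 0.126) and 1.95 ± 0.34 in shMif against shSCR (adjusted p 0.297). The 7 list genes called in shSCR against sgSCR were past the threshold in 5 to 8 of 16 other settings each, and in 0 to 2 of the 8 that leave out a library.

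As a description, the pattern of the 3 widest-ranging members among those whose mean log2 CPM was 1 or more over the 8 libraries was matched to that of 14944 protein-coding genes by Pearson's r of log2 CPM. The genes most like Gstt4 were Arrb1 (r = 0.976), Hilpda (0.971) and Ipmk (0.971), of which Ipmk also lies on chromosome 10. The r of Gstt4 with Mif was 0.339, in place 4193 from the top. Gstt1 was most like Cacnb2 (0.982), Tcp11l2 (0.982) and Slc43a3 (0.970), and its r with Mif was 0.03. Gstt3 was most like Ky (0.985), Bmp4 (0.982) and Igf2r (0.982), and its r with Mif was -0.518. The 8 points share 4 groups and the library class, and the highest of so many values carry no test.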

How the data were processed

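Bulk RNA sequencing libraries of sorted tumour cells were analysed, 2 in each of 4 groups taken from the sample titles. Per the submitters' processing notes, reads went through Trimmomatic and Salmon with build mm10; the sources used here give neither versions nor strandedness. Per the file headers, the deposited tables hold estimated counts (NumReads) and TPM for 116546 transcripts, which the authors had not pooled or normalised between libraries. Transcripts were joined to genes of GENCODE release M21 (115977 matched; the other 569 held 0.101 to 0.205% of reads) and estimated counts were summed per gene and rounded.

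Genes were filtered with filterByExpr (minimum count 10, total 15), scaled by TMM and tested by quasi-likelihood in edgeR 4.0.16 (R 4.3.3), with Benjamini-Hochberg adjustment over 16309 genes and a threshold of 0.05. The 4 group means were fitted together (4 residual degrees of freedom), and the joint effect in an additive fit (5). Intervals use t quantiles at 95%. CPM values are TMM-scaled.

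The members and gene lists were chosen with earlier results of these data known. Named were all 10 members, Mif, Ddt, other genes within 500 kb past the threshold or with the 3 smallest p-values, and up to 3 genes of smallest p per list; not all of the latter are printed, and genes of lists and markers beyond these were singled out after their values were seen. Alternatives were RLE size factors, DESeq2 1.42.0, no filter, length-scaled counts, protein-coding transcripts only, a replicate block, each system alone and leaving out each library; a term for the olfactory receptor class (divided at 1000 CPM) and the 5 libraries above it were chosen after seeing the data. The fits were also run on simulated data, whose spread setting and checks were changed after a first run failed a check. No statement on power is drawn from that run, so a gene that did not pass may still differ. Python 3.11.15 was used for tables.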

Additional observations from a re-analysis of the deposited data

Results flagged for a closer look

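Gstt3 values lay on opposite sides of their controls in the CRISPR and hairpin pairs. Both sgMif values (17.7 and 15.6 CPM) lay above both sgSCR values (14.6 and 14.0 CPM), and both shMif values (22.5 and 23.1 CPM) lay below both shSCR values (25.3 and 23.2 CPM). The difference itself was a log2 value of 0.30 ± 0.23 (SE) with an adjusted p of 0.542 by edgeR's quasi-likelihood test, which did not pass. Neither pair passed on its own (adjusted p 0.543 and 0.895), the nearest hairpin values were 23.1 and 23.2 CPM, and with length-scaled counts both log2 fold changes were below 0 (-0.10 and -0.30). Groups of 2 libraries are too small for the test for a single library far from the rest.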

How the results depend on the processing

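The number of the 9 neighbours called moved with the processing. In sgMif against sgSCR it was 0 in the main analysis, 2 with DESeq2 or with no filter on low counts (Gstt4 and Chchd10), and 1 (Gstt4) with the CRISPR libraries alone or the 5 libraries of the high class. In shSCR against sgSCR it was 1 in the main analysis, 2 with DESeq2 or no filter, and 0 with length-scaled counts or protein-coding transcripts only. In the difference of both effects it was 1 with DESeq2 or no filter, and in the joint effect 1 with no filter, in place of 0. Leaving out each library in turn gave 0 to 1 called in sgMif against sgSCR and in shSCR against sgSCR.

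Same-numbered libraries deviated together with a correlation of 0.182 in the CRISPR pair and 0.263 in the hairpin pair, over only 2 pairs each, and the labels do not tie a number to a mouse or day. With the replicate number as a block, 1 neighbour was called in sgMif against sgSCR (Gstt4, adjusted p 0.0163) and 0 in shSCR against sgSCR, and the calls over all genes went from 161 to 263 and from 655 to 210.

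Over all genes, the calls in sgMif against sgSCR ran from 0 to 1494 around 161 over the settings, in shMif against shSCR from 0 to 1162 around 3, in shSCR against sgSCR from 60 to 2747 around 655, in the difference from 0 to 1306 around 15 and in the joint effect from 0 to 549 around 0. DESeq2 gave 990, 175, 1953, 654 and 280 in that order. Of the calls in sgMif against sgSCR, 37.3% were higher in sgMif in the main analysis, 48.8% with DESeq2, 18.4% with the class term, 27.0% with the replicate block and 27.8% of 18 calls with length-scaled counts, and RLE size factors gave 38.0%.

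Of 497 log2 fold changes of neighbours recomputed, 447 kept their direction and side of the threshold, 14 went past it, 10 fell short of it and 26 changed sign, none of the last past the threshold. In sgMif against sgSCR, Gstt1 was 0.032 in the 5 high-class libraries, Gstt3 was -0.10 with length-scaled counts and Smarcb1 was 0.071 with protein-coding transcripts only. Leaving out each library gave -0.67 to 0.041 for Gstt1 and -2.15 to 0.81 for Susd2 there. In shMif against shSCR, Chchd10 was -0.61 and Ggt5 0.18 with length-scaled counts, and Ggt5 was 0.12 with the replicate block and 0.23 with the class term. Leaving out each library gave -0.57 to 1.11 for Gstt2, -0.99 to 0.39 for Gstt4, -0.17 to 0.25 for Smarcb1, -0.048 to 0.80 for Chchd10, -1.89 to 0.64 for Susd2 and -0.68 to 0.98 for Ggt5. In shSCR against sgSCR, Gstt4 was 0.068 and Smarcb1 0.067 with protein-coding transcripts only, and Gstt4 was 0.15 with the block, 0.096 with the class term and 0.31 in the high-class libraries. Leaving out each library gave -1.02 to 0.32 for Gstt4, -0.13 to 0.054 for Cabin1 and -2.39 to 0.41 for Susd2. The cause of these changes was not tested. With 286 reads of Gstt2, 202 of Ggt5, 96 of Susd2 and 14 of Derl3 over all 8 libraries, depth limits what can be seen for these 4 genes.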
